A study of Mus musculus with 7 samples.

Results

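The genes described here encode the proteins of the cytosolic ribosome. They were taken by name, as genes called Rpl or Rps with a number, or Rpsa, Rplp0, Rplp1 or Rplp2, with splicing events in the tables of both replicate numbers of an RNA-seq experiment on mouse cortical neurons. The S6 kinase genes, which share the start of the name, were left out. In all 31 genes were found among 6701 genes with events in both tables: 10 of the small subunit, 18 of the large subunit, the stalk protein gene Rplp0 and the paralogs Rpl22l1 and Rps27l. A further 12 genes match the name in 1 table only (Rpl15, Rpl19, Rpl23, Rpl27, Rpl28, Rpl7l1, Rps14, Rps16, Rps20, Rps27, Rps3 and Rps6) and are not described. The members had 55 of 19447 events in the tables of replicate 1 and 58 of 22703 in those of replicate 2. Of these, 46 have coordinates that are unique in both tables and could be followed through all 4 libraries, as could 11814 events of all genes.

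Wild-type cortical neurons of ICR embryos at embryonic day 16 were kept in culture to day 11. They were exposed for 10 min to medium with a buffer made from 170 mM KCl, giving a final 50 mM KCl, which depolarizes neurons, or to the same medium with NaCl in the buffer in place of KCl. The cells were harvested 24 h later, and total RNA of 2 control and 2 KCl libraries was sequenced to find late changes in splicing. In a separate experiment of the study, H3K9me3, a chromatin mark found over silenced genes and repeats, was mapped in hippocampus of wild-type C57BL/6 mice aged 3 months. There, 2 libraries were made from mice that spent 24 h in an enriched cage followed by 1 week in a home cage, and 1 from mice kept in the home cage. The labels do not say whether libraries of a group came from separate cultures, so p-values measure the spread between these libraries only, which may be technical.

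A ribosome is built from a small subunit, which reads the mRNA, and a large subunit, which joins the amino acids. Each protein is needed in about equal amounts, and the genes are highly expressed in nearly all cells. Their mRNAs begin with a run of pyrimidines at the cap, the 5′ TOP motif, through which growth signalling by mTOR controls their translation. The genes are short, are spliced efficiently, and often carry snoRNA genes in their introns. In neurons their mRNAs are also found in axons and dendrites, where new proteins are made near synapses.

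Of these features, the short length, the snoRNA genes and the pyrimidine run were looked for in the annotation of the members. By RefSeq models on GRCm38.p6 (the build mm10) their median length was 3175 bases, against 17184 bases for 21869 other protein-coding genes. A snoRNA gene lay inside 12 of the 31 genes (38.7%), against 1.65% of the others. The RefSeq promoter table held 30 promoters of 25 members. An unbroken run of at least 8 pyrimidines (C or T, on the strand of the gene) within 5 bases of the start site was present in 13 of the 30 (43.3%), against 9.38% of all 32851 promoters. Over 250 bases before to 50 bases after the start, the letters CCGGAAG, bound by factors of the ETS family, were found on either strand in 36.7% against 8.86%. The GC box letters GGGCGG were found in 73.3% against 35.7% and TATAAA in 10% against 13.6%, and matches of these motifs may share bases.

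The sequences around the start show how far this feature varies among the members on which the results turn. Each runs 5′ to 3′ over 30 bases of the gene's own strand, the start site being base 16. Capitals mark the longest pyrimidine run that reaches within 5 bases of the start, as far as it lies in the window. The first 6 are the genes with a promoter in the table whose control and KCl libraries did not overlap in level. The last 3 are Rps26, which went against the others between control replicates, the paralog Rps27l and Rpl12, whose level was out of step with all other members.
Rpl13, chr8:123102335-123102364, plus strand: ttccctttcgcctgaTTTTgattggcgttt
Rpl14, chr9:120571502-120571531, plus strand: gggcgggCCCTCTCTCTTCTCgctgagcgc
Rpl27a, chr7:109519180-109519209, plus strand: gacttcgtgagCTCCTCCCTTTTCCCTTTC
Rpl7a, chr2:26910792-26910821, plus strand: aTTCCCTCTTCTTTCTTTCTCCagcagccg
Rplp0, chr5:115559452-115559481, plus strand: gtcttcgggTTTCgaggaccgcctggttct
Rps9, chr7:3704026-3704055, plus strand: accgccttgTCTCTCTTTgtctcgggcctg
Rps26, chr10:128626492-128626521, minus strand: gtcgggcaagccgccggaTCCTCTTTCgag
Rps27l, chr9:66946071-66946100, plus strand: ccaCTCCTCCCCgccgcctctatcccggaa
Rpl12, chr2:32961697-32961726, plus strand: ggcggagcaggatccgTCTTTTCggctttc
The runs are long in Rpl7a, Rpl27a and Rpl14 and reach only 4 bases in Rpl13 and Rplp0 at the annotated start. Rpl12 holds a run of 7, just under the minimum counted above. Rps27l has another annotated start, in the window chr9:66946398-66946427, which is not printed and where the run reaches 4 bases against 9 here.

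For each event the deposited tables count reads of an inclusion and a skipping form. All event reads came to 3566066 and 5385345 in control replicates 1 and 2 and to 3643165 and 4666850 in KCl replicates 1 and 2. Libraries of a group differed widely at the members. Control replicate 1 lay above control replicate 2 in 30 of 31 genes and by more than 2-fold in 15, with a median ratio of 1.93, where the median over 6114 genes was 0.983. KCl replicate 1 lay above KCl replicate 2 in 27, with a median ratio of 1.39. Pseudogenes named after the gene are annotated for 25 of the 31 members, up to 23 for Rpl31. How reads that match such a copy as well as the gene were placed is not given in the sources used here, so the counts of these members are uncertain, and use of the strand is not given either.

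Levels were compared with the reads of both forms at the best-covered event of each gene, as CPM, which is reads scaled to a common library total, here with TMM factors that even out differences in composition between libraries. Values of different genes depend on the event's length and are not compared with each other. In the mean of each group, 30 of the 31 ribosomal protein genes were higher in KCl than in control libraries, and Rpl12 was lower. The fitted log2 difference had a median of 0.37 over the members, which is higher than the 0.04 over all 6114 genes tested, of which 52.5% were higher in KCl. None of these differences passed the test: 0 of 31 members had an adjusted p under 0.05 in edgeR's quasi-likelihood test with Benjamini-Hochberg adjustment over all genes, against 0% of all genes. At an unadjusted p under 0.05 there were 0 members, against 12.2% of all genes, and DESeq2 and limma called 0 members too. An edgeR fit with a block for replicate numbers called 1 member, Rps27l, against 20.3% of all genes. What libraries of a number share is not stated in the labels, so the fit without a block was kept. In bulk RNA, fewer cells of a type and less RNA per cell cannot be told apart.

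In 9 of the 31 genes the control and KCl libraries did not overlap (43.2% of all genes), and all 9 were higher in KCl, a share close to the 22.1% of all genes that were. No member was lower without overlap, as 21.2% of all genes were. In the small subunit, Rps9, which sits where the mRNA enters, had 2077 and 1595 CPM in control and 2693 and 2163 CPM in KCl libraries. Its log2 difference was 0.40 with a standard error of 0.39 (edgeR adjusted p = 0.776). The gap between its groups was narrow, since KCl replicate 2 lay just above control replicate 1.

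All 10 genes of the small subunit were higher in KCl than in control within each replicate number, but the groups overlapped in 8 of them. The median log2 difference of the 10 genes was 0.42. Rps19, mutated in the inherited anaemia of Diamond and Blackfan, had 1352 and 326 CPM in control and 1947 and 519 CPM in KCl libraries. Rps2, which lies by the entry of the mRNA channel, had 2468 and 360 CPM in control and 3276 and 464 CPM in KCl libraries. In both genes the replicates of a group differed by more than the groups. Rps26, which lies by the exit channel of the mRNA and can leave the ribosome under stress, was the 1 member that ran the other way between control replicates, with 3340 and 5464 CPM in control and 3698 and 6246 CPM in KCl libraries. Its log2 difference was 0.18 with a standard error of 0.46. Rps13, Rps15a and Rps18 had log2 differences of 0.49, 0.45 and 0.53.

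In the large subunit 17 of 18 genes were higher in the mean of the KCl libraries, with a median log2 difference of 0.35, and 6 had groups that did not overlap. Rpl14 had 901 and 886 CPM in control and 1371 and 1119 CPM in KCl libraries. Its controls were close together, and its log2 difference of 0.48 had a standard error of 0.38 (edgeR adjusted p = 0.693). Rpl13 had 1999 and 1969 CPM in control and 2414 and 2721 CPM in KCl libraries. Here both groups kept a small spread, at 1984 ± 21.5 against 2568 ± 217 CPM (SD, n = 2 each). Rpl7a, which binds rRNA early in assembly, had 391 and 333 CPM in control and 526 and 451 CPM in KCl libraries. The log2 differences of Rpl13 and Rpl7a were 0.37 and 0.43. Rpl7 had 1370 and 1076 CPM in control and 1621 and 1585 CPM in KCl libraries, and Rpl27a had 1179 and 891 CPM in control and 1470 and 1185 CPM in KCl libraries. Rpl27a was the closest case, with the lower KCl library almost level with the higher control.

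Groups overlapped in the other genes of the large subunit. Rpl3, next to the site where peptide bonds form, had 1016 and 640 CPM in control and 1089 and 915 CPM in KCl libraries. Rpl10, which joins last and allows the subunit to work, had 2034 and 1052 CPM in control and 1945 and 1505 CPM in KCl libraries. Rpl11, which with 5S rRNA can bind Mdm2 when ribosome assembly fails, had 1843 and 822 CPM in control and 2284 and 1082 CPM in KCl libraries. In Rpl10 the difference was seen in replicate 2 only, and in the other pair it was seen within both numbers. Rpl31 and Rpl35, at the exit of the peptide tunnel, had log2 differences of 0.09 and 0.18 (standard errors 1.16 and 0.49). The range was from 0.09 to 0.60 over the large subunit genes other than Rpl12, with Rpl18 at the upper end. Rpl6, Rpl10a, Rpl13a, Rpl26 and Rpl34 lay between, at 0.12, 0.25, 0.58, 0.10 and 0.44.

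Rplp0, the scaffold of the stalk that calls in elongation factors, had 1845 and 1525 CPM in control and 2179 and 2015 CPM in KCl libraries. The groups did not overlap, and the log2 difference was 0.32 with a standard error of 0.38 (edgeR adjusted p = 0.833). The paralogs differed more between replicates. Rps27l, a p53 target related to Rps27, had 235.5 and 55.3 CPM in control and 471 and 95.7 CPM in KCl libraries, the largest log2 difference of the members at 0.96 with a standard error of 0.88. Rpl22l1, the paralog of Rpl22, had 130 and 18.2 CPM in control and 138 and 26.0 CPM in KCl libraries. For both the KCl library was above the control of the same number, and control replicate 1 was above KCl replicate 2.

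**Figure D1:**
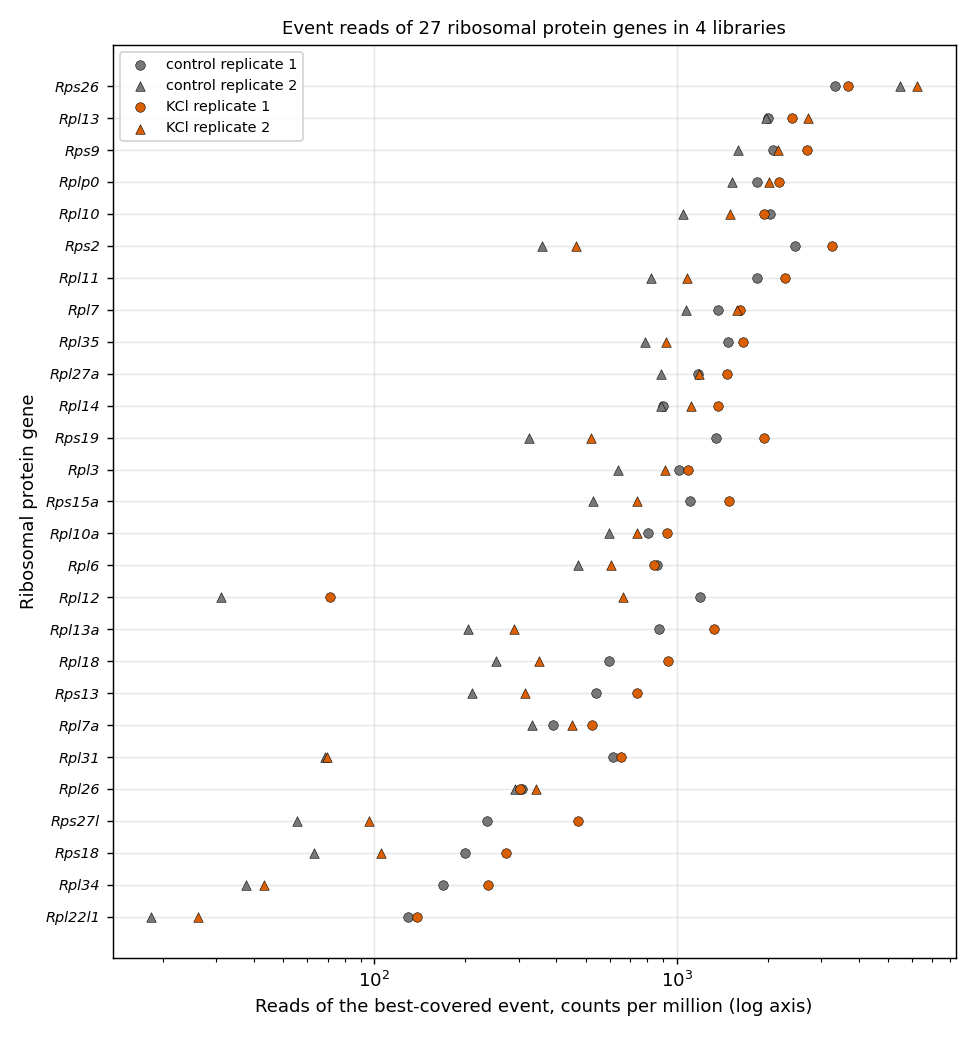
Reads at the best-covered event of 27 of the 31 genes, in CPM on a logarithmic axis; grey is control, orange KCl, circles replicate 1 and triangles replicate 2. Genes are ordered by their control mean only for reading, since values depend on event length. In most genes both triangles lie left of both circles, and the KCl symbol lies to the right of the control symbol of the same shape.

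The authors' tables set KCl against control within a replicate number, and the same view of the levels shows the members most plainly. KCl was above control within both numbers in 27 of 31 members, against 39.7% of all genes, and below it within both in 0, against 35.7%. Over the members the log2 ratio had a median of 0.31 within replicate 1 and 0.44 within replicate 2, where all genes had 0.08 and 0.01. What libraries of a number share is not stated in the labels. The mean difference over groups depended on the balance of the numbers: without control replicate 2 the members' median was -0.02 and 15 of 31 were higher in KCl, and without KCl replicate 1 it was -0.12 with 14 of 31 higher. Without control replicate 1 or KCl replicate 2 it stayed above 0, and its highest value was 0.78.

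**Figure D2:**
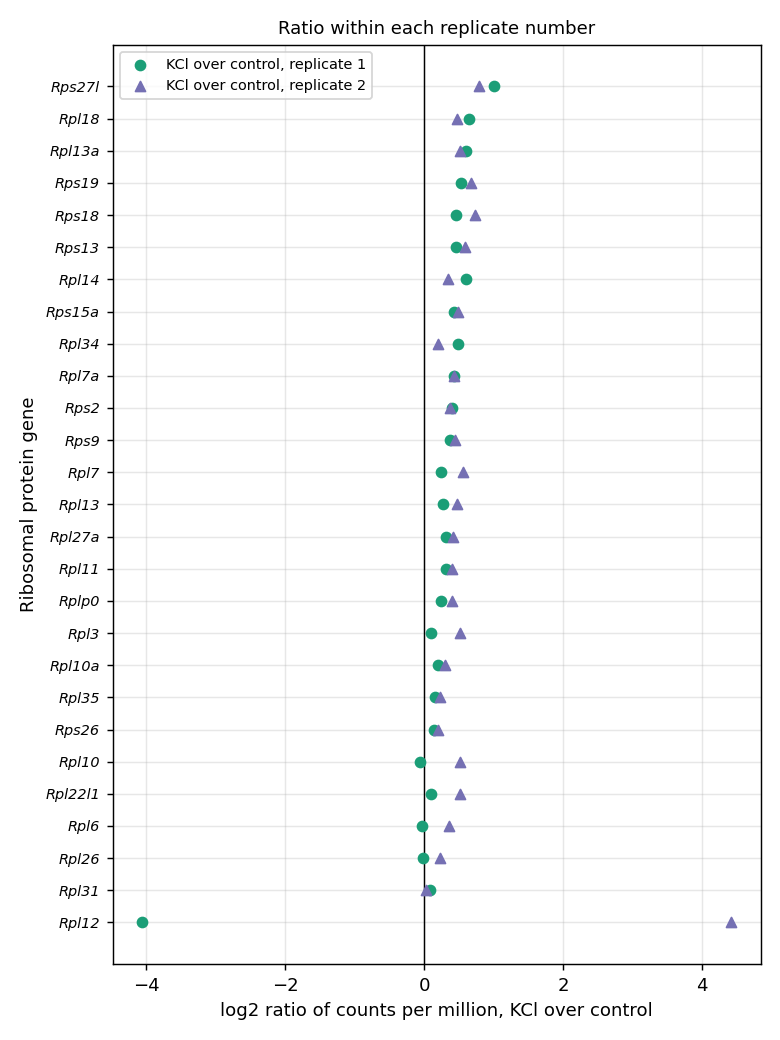
The log2 ratio of KCl over control CPM within replicate 1 (circles) and within replicate 2 (triangles), for 27 of the 31 genes, ordered by the fitted difference. All but 4 genes lie right of 0 with both symbols, and Rpl12 lies far out on opposite sides.

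The summed levels of cell type markers differed between the groups, although 0 genes of any marker list passed the test (edgeR, adjusted p under 0.05). At an unadjusted p under 0.05 there were 4 of 6 oligodendrocyte, 3 of 4 mesenchymal and vascular and 3 of 6 neuronal genes. There were also 2 of 6 astrocyte and 1 of 4 progenitor genes, against 12.2% of all genes. Summed over the measured markers, oligodendrocyte genes (6 of 14 measured) had 322 and 342 CPM in control and 2003 and 1099 CPM in KCl libraries. Mesenchymal and vascular genes (4 of 13) had 486 and 596 CPM in control and 3202 and 2481 CPM in KCl libraries, and progenitor genes (4 of 10) had 198 to 391 CPM in control and 612 to 688 CPM in KCl libraries. Astrocyte genes (6 of 12) had 3138 and 2496 CPM in control and 4455 and 3320 CPM in KCl libraries. Neuronal genes (6 of 16) went the other way, with 2079 and 2694 CPM in control and 322 and 973 CPM in KCl libraries. These sums weigh genes with many event reads most. Of the mesenchymal genes, Tagln alone had 405 and 472 CPM in control and 2750 and 2128 CPM in KCl libraries. Of the astrocyte genes, Aldoc alone had 2272 and 1611 CPM in control and 2695 and 2058 CPM in KCl libraries. In the fit each measured gene of these lists had the direction of its sum. No measured marker was at 0 in a library, and of the 10 microglia markers 0 were measured. The part of these cells in the levels of the ribosomal protein genes was not tested.

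As a share of all reads at identifiable events, the 46 member events took 2.89% and 1.87% in control replicates 1 and 2 and 3.43% and 2.64% in KCl replicates 1 and 2. Exact 95% binomial intervals were at most 0.05 percentage points wide and cover counting error only. Each KCl library held a larger share than the control of its number, but control replicate 1 held more than KCl replicate 2, so the groups overlapped. Over all deposited events of the members the shares were 2.07% and 1.34% in control and 2.46% and 1.98% in KCl libraries. By single events, 42 of the 46 were higher in the KCl mean, with a median log2 difference of 0.36. Over all 11814 events the median was 0.02, and 6049 were higher. Events of a gene can share reads, so the 46 are not separate observations. For example, 3 of them are overlapping forms of 1 Rps27l exon. In 10 of the 46 the groups did not overlap, against 41.8% of all events. All 10 were higher in KCl, as 20.5% of all events were. No member event was lower without overlap, as 21.4% of all events were. None passed the test (edgeR, 0 of 46; 0% of 11814 events), and 0 of 46 had an unadjusted p under 0.05, against 10.9% of all events.

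The kinds of event listed for the ribosomal protein genes had another makeup than those of other genes. Retained introns made 34.5% and 32.8% of their events in the tables of replicates 1 and 2, against 9.47% and 8.51% of the events of other genes. Cassette exons made 40% and 39.7%, against 70.8% and 72%. Which events are listed follows from the annotation and from reads, so this is a count of what was deposited. In many of these events almost all reads were of 1 form. A form with any reads can make less than 1% only at a well-covered event. In control replicate 1 the 46 member events held 62573 of the 2162614 reads at 11814 identifiable events. The part of depth in the shares that follow was not tested. The rarer form made less than 1% of the reads in each of the 4 libraries in 22 of 46 member events (47.8%), against 9.06% of 11768 other events. It made 5% or more in each in 5 member events (10.9%), against 33.6% of the others. Among these were an alternative 5′ splice site of Rpl10a, mutually exclusive exons of Rps15a and retained introns of Rpl13 and Rpl31. For Rps15a both exons of the pair were nearly always included as cassette exons, so neither is a minor form.

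At most of the members' retained introns, intron reads were few beside spliced reads. Over the 15 identifiable retained introns of 12 members, intron reads made 2.41% (370 of 15342 reads) and 2.66% (307 of 11557) in control replicates 1 and 2. In KCl replicates 1 and 2 they made 1.96% (384 of 19568) and 2.13% (324 of 15202). The KCl libraries lay below the controls, at 2.05% ± 0.12 against 2.53% ± 0.17 (SD, n = 2 each), and the groups did not overlap. The 1445 other retained introns had 47.1% and 52.4% in control and 47.7% and 48.5% in KCl libraries. Their level is not set against that of the members, since the regions were not matched in length or coverage. Leaving out Rpl12 and Rpl31 together, a choice made after seeing the data, removed the gap between the groups. Neither gene was left out alone. Over the other 12 introns the shares were 1.20% and 1.30% in control and 1.28% and 0.98% in KCl libraries, which overlap. The Rpl12 region spans a cassette exon, and its spliced counts match those of the form that skips this exon. Its share is therefore not read as retention, although its reads are in the sums over 15 introns. Over all 19 deposited retained intron events of the members in each table, which include those that share coordinates, the shares were 4.43% and 6.32% in control and 4.24% and 5.20% in KCl libraries, and the groups overlapped. A permutation test of 2 against 2 libraries cannot reach the threshold, and none was run. These shares are reads of the intron form in percent of both forms and not the percent of transcripts, since the effective lengths of the forms are not given. They are compared only between libraries. The region given for such an event runs across the flanking exons.

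Of the single introns, 4 of 15 had groups that did not overlap, against 32.8% of 1394 retained introns tested, and 0 passed the test (edgeR; 0 at an unadjusted p under 0.05, against 3.95%). The first of them is Rpl31, with a region of 327 bases near its start on chromosome 1 (39367929 to 39368255). Its intron reads were 78 of 109 and 46 of 78 in control, or 71.6% and 59.0%, and 35 of 88 and 40 of 68 in KCl libraries, or 39.8% and 58.8%. KCl replicate 1 was far lower than the other 3 libraries, and KCl replicate 2 was level with control replicate 2. The authors' deposited table gives this event an FDR of 0.0467 within replicate 1 and of 1 within replicate 2, each a comparison of 1 library with 1 library. Over the 4 libraries the log2 odds difference was -0.99 with a standard error of 0.75 (edgeR adjusted p = 0.799), and it was -0.42 without KCl replicate 1 and -1.53 without KCl replicate 2. A second intron of Rpl31 (39370954 to 39371366) had 0.45% and 5.47% in control and 0.63% and 12.2% in KCl libraries, so replicate 2 was higher in both groups.

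In Rpl13 a region that reaches the end of the gene (chromosome 8, 123103898 to 123105244) had 13.1% and 27.6% in control and 9.31% and 19.7% in KCl libraries. KCl lay below control within each number, and the groups overlapped. The other Rpl13 intron, around Snord68, stayed between 0.25% and 0.54%.

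In Rpl7a the intron region with a snoRNA gene inside had 2.14% and 2.58% in control and 1.30% and 1.88% in KCl libraries, without overlap but with 10 to 16 intron reads per library. Rpl18 had 0.82% and 0.85% in control and 0.59% and 0.16% in KCl libraries, also without overlap, from at most 8 intron reads. Rps2 had 0.14% and 0.15% in control and 0.23% and 0.24% in KCl libraries, the 1 intron that was higher without overlap, from 1 to 11 intron reads. At such counts the exact intervals of control and KCl libraries overlap in all 3 genes. Rps13, around Snord14a, ran from 2.33% to 3.96%, Rpl3 from 1.88% to 4.88% and Rpl10 from 0.70% to 3.80%. Rpl34 had 0 of 242 reads in control replicate 1, which leaves up to 1.51% by the exact interval, and up to 3.95% in the others. The 2 introns of Rpl7 did not exceed 0.31% in any library. Rpl10a and Rpl3 have further intron rows that share their coordinates with another row and cannot be followed between tables.

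**Figure D3:**
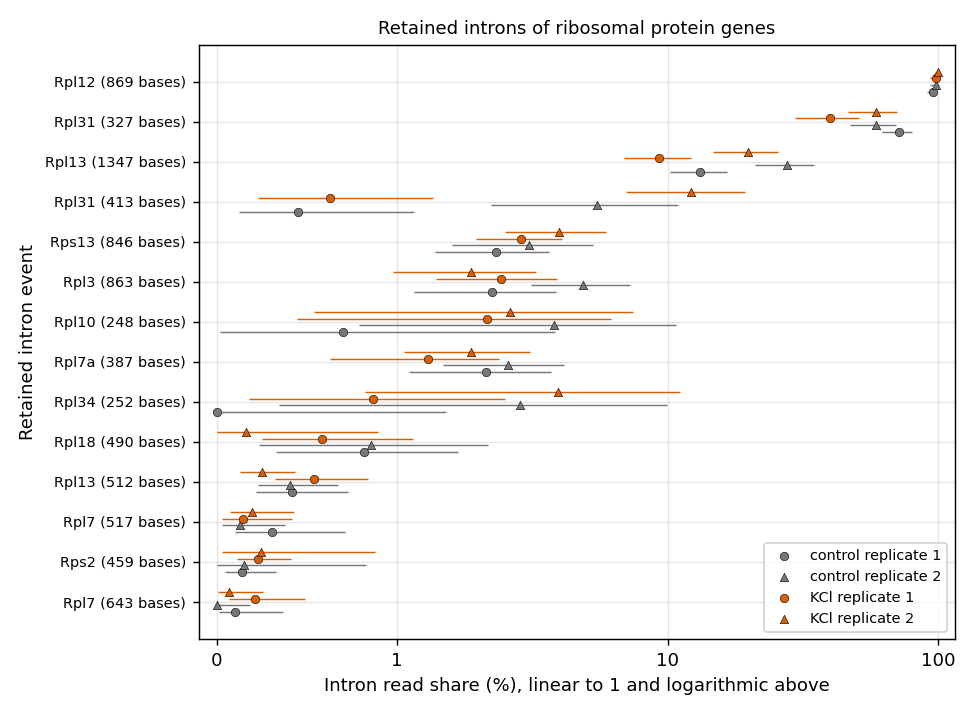
Intron read share in percent of 14 of the 15 retained intron events, on an axis that is linear to 1 and logarithmic above, with exact 95% binomial intervals as bars; grey is control, orange KCl, circles replicate 1 and triangles replicate 2. Beside each gene stands the length of the region. The event of Rpl12 sits above 95%, but its region spans a cassette exon. Its spliced counts match those of the form that skips this exon, so its share is not read as retention. In 5 of the events the share stays below 1% in all 4 libraries.

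Over all event types, 44 member events had enough reads of both forms to test. None passed the threshold (edgeR, 0 of 44; 0% of 10088 events), and 1 of 44 had an unadjusted p under 0.05, against 9.2% of all events. Groups did not overlap in 15 of 44 (34.1%), against 40.7% of all events. Inclusion was higher in KCl in 7 of them and lower in 8, against 21.2% and 19.5% of all events. The 8 include nested forms of 77 and 75 bases of 1 Rps27l exon. These have the same reads in every library and are not separate observations. The event with the smallest p was a cassette exon of Rps9 on chromosome 7 (3704646 to 3704768). It was skipped in 4 of 2982 and 5 of 2972 reads in control and in 0 of 3933 and 1 of 3820 reads in KCl libraries. Its log2 odds difference of 3.28 (standard error 1.29, edgeR adjusted p = 0.431) therefore rests on 10 skipping reads, and it ranged from 2.40 to 5.74 when 1 library was left out. Rpl14 showed the same order, with its exon (chromosome 9, 120572768 to 120572862) skipped in 4 and 2 reads in control and 0 and 1 reads in KCl libraries. In the cassette exon of Rpl35 (chromosome 2, 39004107 to 39004188) the KCl libraries held more, with 1 and 1 skipping reads in control and 8 and 2 in KCl libraries. Neither passed the test, with adjusted p of 0.548 and 0.662 in edgeR.

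Of the events with a sizable minor form, the alternative 5′ splice site of Rpl10a, whose protein forms the arm that releases the spent tRNA, had inclusion shares of 9.95% and 18.6% in control and 9.60% and 13.8% in KCl libraries. Mutually exclusive exons of Rps15a (chromosome 7, first exon 118109933 to 118110018) had 64.9% and 88.5% in control and 67.6% and 88.8% in KCl libraries. In Rps15a the values followed the replicate number, and control and KCl libraries of a number lay within 3 percentage points. As cassette exons, this first exon was included in 98.9% to 100% of reads and the second (118114785 to 118114864) in 99.35% to 99.87%. The Rps15a share thus compares reads at 2 exons that were both nearly always included, and is not that of a rarer form. The 3′ splice site event of Rpl3 had 2.95% and 6.29% in control and 3.84% and 4.39% in KCl libraries. All 3 had groups that overlapped.

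Rpl12 was the exception to the pattern of levels. Its protein sits at the base of the stalk, where elongation factors bind. At its best-covered event, an alternative 5′ splice site next to the start (chromosome 2, 32961740 to 32961960), it had 1195 and 31.1 CPM in control replicates 1 and 2 and 71.2 and 665 CPM in KCl replicates 1 and 2. Control replicate 1 and KCl replicate 2 were thus high, and the other 2 libraries were far lower. The product of the 2 high values over that of the 2 low values was 359, the highest such ratio of 6114 genes, where the median was 1.36 and no other member exceeded 1.5. This feature was picked after its values were seen. The fitted log2 difference was -0.73 with a standard error of 1.45 (edgeR adjusted p = 0.914). It was 3.56 without control replicate 1 and -3.19 without KCl replicate 2, the latter with an edgeR adjusted p of 0.00267.

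The reads that came and went were of the usual spliced forms. At the 5′ splice site event the skipping form had 1685 and 28 reads in control and 38 and 1145 in KCl libraries, while the inclusion form stayed at 30 and 30 in control and 66 and 30 in KCl libraries. The inclusion share was therefore 1.75% and 51.7% in control and 63.5% and 2.55% in KCl libraries. The cassette exon (32963497 to 32963583) followed, with 416 and 1 inclusion reads in control and 4 and 123 in KCl libraries. The retained intron region (32962985 to 32963853), which spans that exon and Snora65, did not: its intron reads were 117 and 108 in control and 107 and 123 in KCl libraries. Its spliced form had 5, 2, 2 and 0 reads, the same counts as the skipping form of the exon inside it. Reads that join this exon are thus not among them, and the intron share of this event is not read as retention. For the 5′ splice site event the authors' deposited table gives an FDR of 0.0072 within replicate 1 and of 1 within replicate 2. In total 2 of the members' 55 events were under 0.05 in the authors' deposited table of replicate 1 (2.26% of all events were), Rpl12 and Rpl31, and 0 of 58 in that of replicate 2 (0.828%). RefSeq names 2 pseudogenes of Rpl12, and their part in these counts was not tested.

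**Figure D4:**
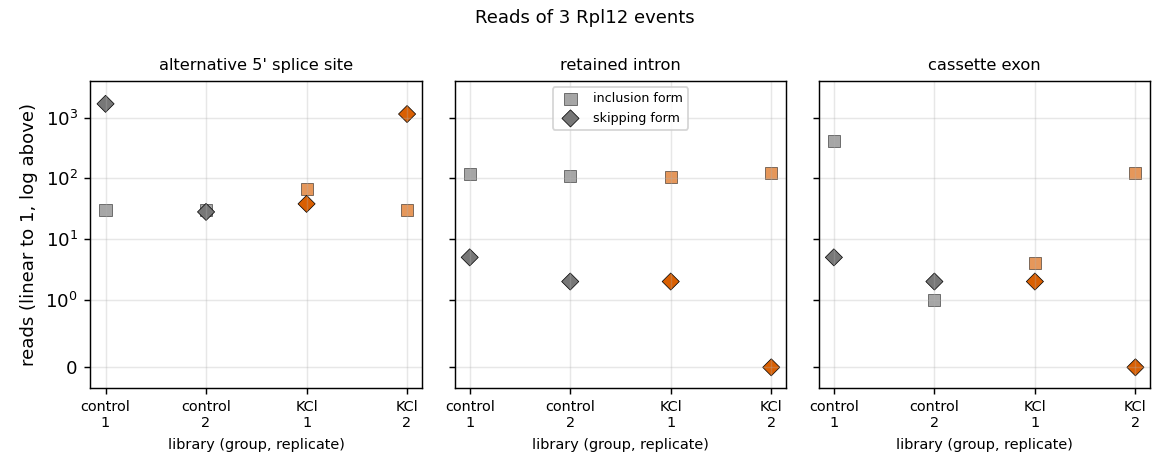
Reads of the inclusion form (squares, paler) and the skipping form (diamonds) at 3 events of Rpl12 in each of the 4 libraries, on an axis that is linear to 1 and logarithmic above; grey is control and orange KCl. The skipping form of the 5′ splice site and the inclusion form of the exon are high in control replicate 1 and KCl replicate 2, and the reads over the retained intron stay between 107 and 123.

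Other genes of translation were described from lists, of which none had a member past the threshold for levels (edgeR). Among 11 measured mRNAs of the 5′ TOP class that encode other proteins, 9 were higher and 2 lower in KCl, with a median log2 difference of 0.20. Eef1a1, the factor that brings aminoacyl-tRNA, had 21884 and 22017 CPM in control and 23448 and 25010 CPM in KCl libraries, and Tpt1, a growth-related 5′ TOP mRNA, had 4560 and 2596 CPM in control and 5431 and 3582 CPM in KCl libraries. Eef1a1 had no overlap between the groups and Tpt1 did. Of 9 elongation and termination factors 6 were higher and 3 lower, with a median of 0.13. Of 21 initiation factors 9 were higher and 12 lower, with a median of -0.01. Of 28 mitochondrial ribosomal proteins, which belong to the separate ribosome of that organelle, 18 were higher and 10 lower, with a median of 0.12.

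Of 27 ribosome biogenesis genes 15 were higher and 12 lower, with a median of 0.07, and Nop56, a core protein of box C/D snoRNPs, had 192 and 235 CPM in control and 86.3 and 162 CPM in KCl libraries. Of 18 genes of the mTOR and S6 kinase pathway 5 were higher and 13 lower, with a median of -0.25. Of 15 other snoRNA host genes 9 were higher and 6 lower, with a median of 0.29, and of 12 genes of nonsense-mediated decay 7 were higher and 5 lower, with a median of 0.11. At an unadjusted p under 0.05 the 8 lists held from 0 to 2 genes each, against 12.2% of all genes. The highest counts were 2 of the 18 mTOR and S6 kinase genes and 2 of the 15 snoRNA host genes. The members' median of 0.37 lay above that of each of these lists, and no test of that difference was made.

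In the hippocampus the gene bodies of the 31 members had low H3K9me3 coverage. No input library and no correction for reads that also match pseudogenes entered the calculation made here. Mean coverage, divided by the library's median 10 kb window, averaged 0.55 over the members in the home cage library and 0.66 and 0.75 in enriched replicates 1 and 2. Over 21600 other protein-coding genes it averaged 1.02, 1.07 and 1.03. It was above 1 in 3, 2 and 8 of the 31 members, against 36.2%, 37.4% and 43.3% of the other genes. Single genes rest on few fragments, at most 19.0, 40.1 and 29.7 in the home cage library and enriched replicates 1 and 2, so differences between libraries for 1 gene are not read. Rps15a, the longest member, had 0.71, 0.72 and 0.82 in the home cage and the 2 enriched libraries. Rps13 had 1.23, 0.64 and 0.86. With 1 home cage library there is no test of housing, and the tissue, strain and treatment differ from those of the cultures.

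**Figure D5:**
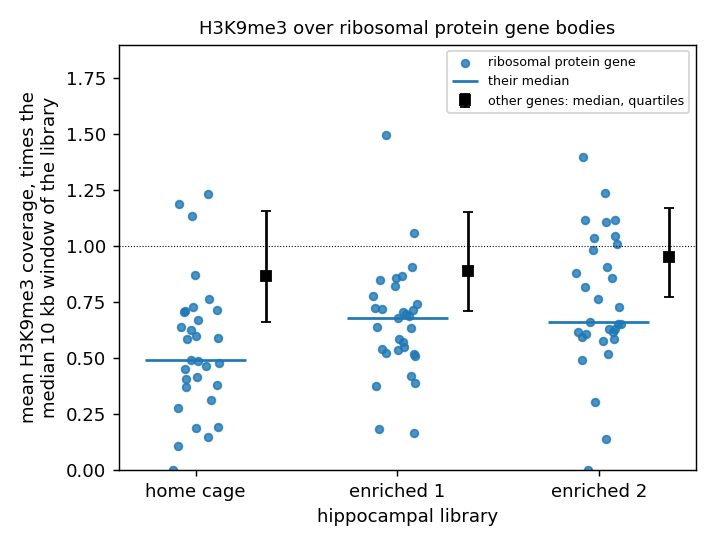
Mean H3K9me3 coverage over each of the 31 gene bodies (points), as a multiple of the library's median 10 kb window, in 1 home cage and 2 enriched hippocampal libraries; blue lines are medians of the members, and black squares with bars are the median and quartiles of 21600 other protein-coding genes. The members' medians of 0.49, 0.68 and 0.66 lie below those of the other genes, 0.87, 0.89 and 0.95.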

How the data were processed

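The deposited RNA tables hold, per the file headers, counts of reads for the inclusion and the skipping form of each splicing event, and the authors' p-values and FDRs that compare KCl with control inside each replicate number; 2 further columns repeat another library and were not used. The deposited ChIP files hold coverage, a signal scaled per library. The submitters' processing notes name CASAVA 1.7, TopHat2, BWA 0.7.12, MACS2 and mm10, and the event counter is not given in the sources used here. Starts were converted to count from 1. Splicing (form by KCl), event levels and gene levels were fitted over all events or genes with the quasi-likelihood test of edgeR 4.0.16 in R 4.3.3, with a minimum mean of 1 read, no block for replicate numbers, Benjamini-Hochberg adjustment and a threshold of 0.05. The fits were tested on simulated data. Alternatives were DESeq2 1.42.0, limma 3.58.1 (pseudocount 1), other scalings and filters, events summed, a replicate block and each library left out. Intervals are exact binomial (95%). Promoters and gene models are from RefSeq, GRCm38.p6. Members and lists were chosen with earlier results of these data known. Named were members with identifiable retained introns, with most reads, with groups that did not overlap or a low deposited FDR, stalk genes and paralogs, and leading genes of each list. Some members that this rule names are not reported here by name and stay in the counts. Tables were joined with pandas 2.3.3 (Python 3.11.15), and intervals came from scipy 1.17.1.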

Additional observations from a re-analysis of the deposited data

How the results depend on the processing

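Of the gene levels of the members, only those of Rpl12 and Rps27l passed the threshold under any alternative run. Over all genes and events, calls went from 0 to 55 (gene levels) and 74 (event levels) with DESeq2, and leaving out 1 library gave 0 to 298 gene levels, 0 to 434 event levels and 0 to 0 splicing events. The labels do not say that a number marks a shared culture; deviations of same-numbered libraries correlated at 0.589 over 6114 genes. With a replicate block, 167 splicing events, 1359 event levels and 1240 gene levels were called, of the members Rps27l (log2 0.90, edgeR adjusted p = 0.0176). The members' median level difference ranged from -0.122 to 0.779 without 1 library and stayed above 0 otherwise, as it did without Rpl12, an alternative chosen after seeing the data. The median splicing difference of -0.12 was 0.066 with limma and ranged from -0.578 to 0.176 without 1 library. The intron share difference of -0.49 percentage points was 0.012 as a median over events, -0.12 without Rpl12 and Rpl31 (chosen after seeing the data) and -0.61 to -0.365 without 1 library. Directions also turned for Rpl12 (level 0.08 with the block, 0.17 with limma, -3.187 to 3.562 without 1 library; 5′ splice site -2.378 to 3.889), and without 1 library for Rps26 (-0.318 to 0.574), Rps27l (-0.594 to 2.355) and the Rpl13 intron (-1.268 to 0.068). The causes were not tested. Leaving out a library leaves 1 in its group, which is assumed to vary like the other group. Depth limits the rare forms most, which rest on single reads.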
